A study of Mus musculus with 4 samples.

Results

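Genes that mark or maintain the stem cells of the hair follicle were compared in mouse back skin with and without epidermal Adam17. The 9 genes were the transcription factors Sox9, Lhx2, Nfatc1 and Tcf3, the receptors and receptor regulators Lgr5, Lgr6 and Lrig1, and the surface proteins Cd34 and Plet1. In the files Tcf3 is the E2A gene, whereas follicle studies use that name for Tcf7l1, as set out below. Counts over the 9 genes include the E2A gene and not Tcf7l1. The choice was made by name, as every gene probe of the array listed under one of these genes. It gave 14 probes for 9 of the 28034 genes named on the array. Of the 9 genes, 8 carried their own symbol in the files, and Plet1 stood under an older clone name and was found by its accession. A single probe stood for 5 genes and several probes for 4.

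The biopsies were back skin of mice aged 10 days, on a mixed 129Sv and C57BL/6 background. The 2 knockout animals (cKO) carried Adam17flox/flox and the Krt14-Cre transgene, and the 2 controls were littermates without Cre. Replicate 1 of both groups came from litter 1 and replicate 2 from litter 2. Krt14-Cre acts in basal keratinocytes and their descendants, the outer root sheath and the bulge among them, and leaves Adam17 intact in the dermis. Only cKO animals carried the transgene, so loss of Adam17 and the presence of Cre cannot be told apart. Neither the labels nor the design text state which floxed alleles each control carried. A biopsy holds dermis, vessels, fat and muscle beside follicles, and in such bulk RNA fewer cells of a type and less RNA per cell cannot be told apart.

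The bulge is a niche of the outer root sheath below the sebaceous gland, where slowly cycling cells rebuild the follicle in each hair cycle. Its cells are marked by Cd34 and depend on Sox9, Lhx2 and Nfatc1, whereas Lgr5 marks the lower bulge and hair germ and Lrig1, Plet1 and Lgr6 mark the isthmus and junctional zone above. Adam17 is a membrane protease that releases the ligands of the EGF receptor and many other surface proteins. In young mice the first follicles are still growing, and a separate, fully formed bulge marked by Cd34 appears only later.

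All values below are log2 processed signals relative to the 75th percentile of their array, so that 0 is the level of that percentile. A difference of 1 is a 2-fold change. A level is compared only with the level of the same probe on other arrays. The arrays were alike in depth of signal, with 53.7% to 56.6% of 43379 gene spots well above background, a 75th percentile of 751 to 784 intensity units and 0 saturated gene spots. Of all genes, 15550 were bright enough to test, with precision limited by the number of arrays. Adam17 itself was 0.44 and 0.37 in the controls and -0.14 and -0.12 in the cKO biopsies, a difference of -0.54 ± 0.085 (SE), or 69.0% of the control level. It was lower in both litters, and its adjusted p was 0.114 in limma's test over all genes.

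**Figure D1:**
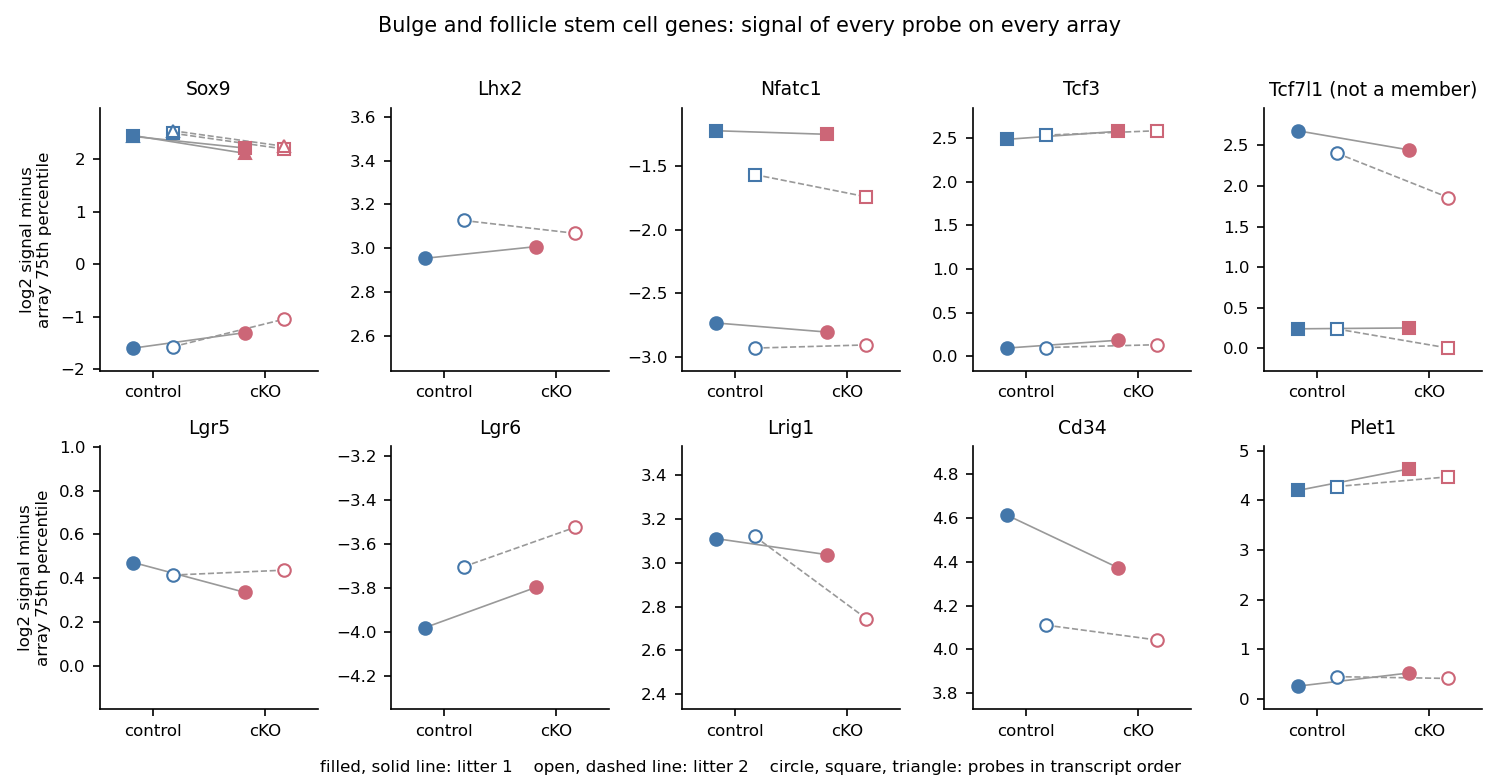
Level of every probe of the 9 genes, and of Tcf7l1 (not a member), on each of the 4 arrays. The vertical axis is the log2 processed signal relative to the array's 75th percentile. Lines join the control and the cKO biopsy of a litter, and each panel has its own scale. At the brightest probe of a gene the cKO biopsies lie below both controls for Sox9 and Lrig1 and above both for Plet1 and Tcf3. The cKO values of the first Sox9 probe lie above both controls, and those of the first Plet1 probe overlap them.

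None of the 9 genes passed an adjusted p of 0.05. At the brightest probe of each gene, the largest differences were those of Sox9 and Plet1. In cKO skin Sox9 was at 80.2% of the control level and Plet1 at 125%. Both had adjusted p-values of 0.25 or more in limma's test. The first Sox9 probe went the other way, with a difference of 0.41. Over the 9 genes the adjusted p ran from 0.250 to 0.992 in limma's test. In that test 53 of the 15550 genes passed, or 0.341%. Counted at an unadjusted p under 0.05, 2 of the 9 genes passed (Sox9 and Plet1), beside 16.1% of all genes tested. In this fit, with genotype alone in the model, the 95% intervals of the other 7 genes included 0. The widest of all 9 reached a change of 1.67-fold.

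The direction was divided within the set. At the brightest probe of each gene, the cKO biopsy was higher in both litters in 3 genes (Lgr6, Plet1 and Tcf3). It was lower in both in 4 (Sox9, Lrig1, Cd34 and Nfatc1), and in Lhx2 and Lgr5 the litters went opposite ways. Among all genes tested, 40.4% were higher in both litters and 32.1% lower in both, so that 72.5% kept 1 direction, against 7 of the 9 here. The cKO and control values did not overlap in 4 of the 9 genes, 44.4%, against 49.4% of all genes tested, so this share lay near the background. Of the 4, Plet1 and Tcf3 were higher (background 28.0%) and Sox9 and Lrig1 lower (background 21.4%). The median difference of the 9 genes was -0.057, and that of all genes was 0.025.

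**Figure D2:**
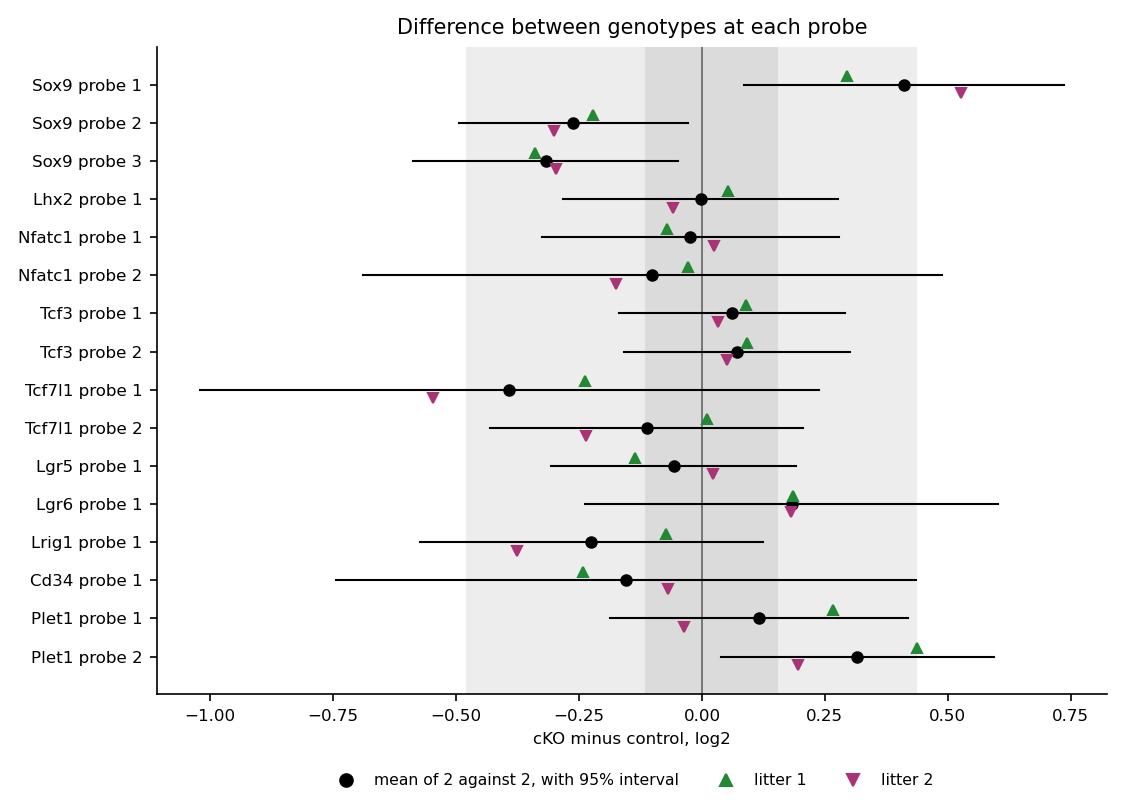
Difference between cKO and control biopsies at each probe of the 9 genes and of Tcf7l1, not a member (log2, horizontal axis). Bars are 95% intervals of the limma fit, and small points are the 2 litters. Dark and light grey bands show the 25th to 75th and 5th to 95th percentiles of all genes tested. The intervals of Sox9 probes 2 and 3 lie below 0, and those of Sox9 probe 1 and Plet1 probe 2 above it. The mean differences of all probes lie within the light band of -0.48 to 0.44.

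Sox9 was measured by 3 probes, whose sequences are shown because the probes did not move together. SOX9 is an HMG-box transcription factor of the outer root sheath, needed to set aside the early bulge stem cells and to keep them. All 3 probes lie on the plus strand of chromosome 11 in mm9, per the files, starting at positions 786, 2082 and 3883 of the transcript. The first, of 60 bases, is given whole, and is mapped to 2 blocks with a gap of 793 bases between them. The first 30 bases are given of the others. No motif is marked by capitals.
Sox9 probe 1 (chr11:112644310-112645162): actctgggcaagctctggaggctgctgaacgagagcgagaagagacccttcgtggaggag
Sox9 probe 2 (chr11:112647008-112647067): ttccaggagagagactttaagactttgtct
Sox9 probe 3 (chr11:112648809-112648868): ataaaaccttaaagcgttcttataatatgg
The GC content of the whole probes was 60.0%, 43.3% and 30% in this order.

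The third probe was the brightest and stood for the gene. Its level was 2.45 and 2.54 in the controls (mean 2.49 ± 0.065, SD, n = 2) and 2.11 and 2.24 in the cKO biopsies (2.18 ± 0.094, SD, n = 2). Both cKO values lay below both control values, by 0.34 in litter 1 and by 0.30 in litter 2. The difference was -0.32 ± 0.098 (SE, 95% interval -0.58 to -0.055), with an adjusted p of 0.250 in limma and 0.142 with litter as a block. The array carries this probe 10 times. Across the spots of an array the SD was 0.043 to 0.066, and among the spots kept the highest cKO spot, 2.28, lay below the lowest control spot, 2.34. On the second cKO array 4 of the 10 spots were left out as outliers, and 1 of these lay just above the lowest control spot, so the spots overlap when every spot is kept. The difference was then -0.31. These spots are repeats of 1 hybridisation and add no animals.

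The second probe gave the same direction, with 2.43 and 2.49 in the controls against 2.21 and 2.19 in the cKO biopsies. Its difference was -0.26 ± 0.087 (SE), and its adjusted p over all probes was 0.290 in limma. The first probe, nearest the 5′ end, went the other way. It read -1.59 and -1.57 in the controls and -1.30 and -1.04 in the cKO biopsies, with both cKO values higher. Its difference was 0.41 ± 0.12 (95% interval 0.086 to 0.74, adjusted p 0.256 in limma over all probes). Averaging the 3 probes left a difference of -0.056 for Sox9.

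**Figure D3:**
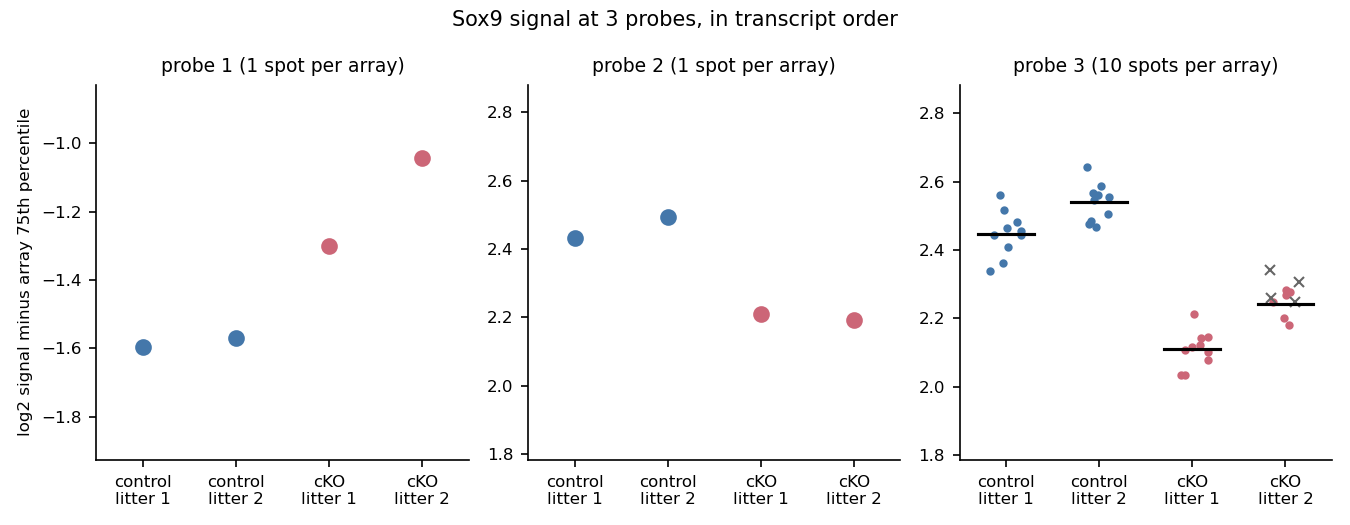
Levels of the 3 Sox9 probes on the 4 arrays (log2 processed signal relative to the array's 75th percentile), with the probes in transcript order; for probe 3 small points are single spots, crosses the 4 spots left out and lines the array's mean. The cKO biopsies lie below the controls for probes 2 and 3 and above them for probe 1.

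Opposed probes of this kind were not rare. Among the 1256 genes with at least 3 tested probes, 127 (10.1%) had a probe with both cKO values above both controls and another with both below. All 14 probes of the 9 genes were well above background on every array, the first Sox9 probe included. In 7 of the 14 the cKO and control values overlapped, and 48.4% of all probes tested had values that did not. None of the 14 passed in limma over all probes, where 35 of 22188 (0.158%) did.

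Lhx2, a LIM homeobox factor that holds bulge stem cells in their undifferentiated state, was close to the same level in both groups. It read 2.95 and 3.13 in the controls and 3.01 and 3.07 in the cKO biopsies, which lay between the controls (chr2:38224933-38224992). The difference was -0.0025 ± 0.10 (adjusted p 0.992 in limma). Its 95% interval of -0.28 to 0.27 leaves room for changes of either sign. Its litters went opposite ways, by 0.054 and -0.059.

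Nfatc1, the calcineurin-dependent factor that holds bulge cells in quiescence, had 2 probes of different transcripts. The brighter read -1.22 and -1.57 in the controls and -1.25 and -1.74 in the cKO biopsies. The groups overlapped, and the difference of -0.10 ± 0.22 (95% interval -0.69 to 0.49, adjusted p 0.849 in limma) was smaller than the step between litters. Litter 2 lay below litter 1 by 0.34 in the controls and by 0.49 in the cKO biopsies. The other probe read -2.73 and -2.93 in the controls and -2.80 and -2.90 in the cKO biopsies, a difference of -0.024 ± 0.11.

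The name Tcf3 needs care, because it has been used for different genes. In the files Tcf3 is the gene of the E2A proteins, basic helix-loop-helix factors that pair with other factors and are blocked by ID proteins. Its brighter probe (chr10:79872639-79872698) read 2.49 and 2.54 in the controls and 2.58 and 2.59 in the cKO biopsies. Both cKO values were higher, by a small step, and the difference of 0.071 ± 0.083 (95% interval -0.15 to 0.29) had an adjusted p of 0.718 in limma. The other Tcf3 probe read 0.093 and 0.10 against 0.18 and 0.13, a difference of 0.062 ± 0.086. The Wnt-pathway repressor that follicle studies call TCF3 is Tcf7l1, which keeps bulge cells undifferentiated and is no member of the set by the name in the files. Tcf7l1 read 2.68 and 2.40 in the controls and 2.44 and 1.86 in the cKO biopsies. It was lower in both litters, by 0.24 and 0.55, while the groups overlapped. The difference was -0.39 ± 0.23 (95% interval -1.02 to 0.24, adjusted p 0.489 in limma and 0.182 with litter as a block). Without the second cKO biopsy the Tcf7l1 difference was -0.099, and without the first it was -0.68. Its dimmer probe gave -0.11 ± 0.12, with 0.24 and 0.24 in the controls and 0.25 and 0.0044 in the cKO biopsies.

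Lgr5, a receptor for R-spondins that marks the lower bulge and hair germ, read 0.47 and 0.41 in the controls and 0.34 and 0.44 in the cKO biopsies (chr10:114888847-114888906). The groups overlapped, and the litters went opposite ways. The difference was -0.057 ± 0.090 (95% interval -0.30 to 0.19, adjusted p 0.795 in limma). Its relative Lgr6, an R-spondin receptor of the isthmus, was dim (chr1:136883782-136883841). Lgr6 read -3.98 and -3.70 in the controls and -3.80 and -3.52 in the cKO biopsies. The lowest signal well above background on these arrays was -4.86 to -4.50, not far under it. Lgr6 was higher in cKO skin by 0.19 in litter 1 and by 0.18 in litter 2, and in each group litter 2 was higher than litter 1, by 0.28 and 0.27. The difference of 0.18 ± 0.16 (95% interval -0.23 to 0.60) had an adjusted p of 0.615 in limma and 0.225 with litter as a block. It was 0.043 without the first control, 0.046 without the second cKO biopsy and 0.32 without either of the others. Each omission unbalances the litters, so these values take in the step between litters.

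Lrig1, a transmembrane inhibitor that lowers EGF receptor signalling and marks the upper isthmus, read 3.11 and 3.12 in the controls and 3.04 and 2.74 in the cKO biopsies (chr6:94554681-94554740). Both cKO values were below both controls, but the step was uneven, at 0.074 in litter 1 and 0.38 in litter 2. The difference was -0.22 ± 0.13 (95% interval -0.57 to 0.12), or 85.6% of the control level, with an adjusted p of 0.469 in limma. Without the second cKO biopsy it was -0.079, and without the first it was -0.37.

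Cd34, the sialomucin that marks bulge cells in mature follicles, is also made by endothelial cells, fibroblasts of the dermis and mast cells. It read 4.61 and 4.11 in the controls and 4.37 and 4.04 in the cKO biopsies (chr1:196787392-196787451). The groups overlapped. Cd34 was lower in cKO skin by 0.24 in litter 1 and by 0.068 in litter 2, while litter 2 lay below litter 1 by 0.50 in the controls and by 0.33 in the cKO biopsies. The difference was -0.15 ± 0.22 (95% interval -0.74 to 0.43, adjusted p 0.771 in limma and 0.332 with litter as a block). Without the first control it was 0.096, and without the second it was -0.41. Either omission unbalances the litters, so these 2 values take in the step between litters.

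Markers of those other cells moved with Cd34 across litters. Their level is given as the sum of the markers' linear signals, in multiples of the array's 75th percentile. The 12 endothelial markers, all tested, summed to 19.6 and 16.2 in the controls and 17.9 and 16.3 in the cKO biopsies, with 6 lower in both litters and 1 higher. The 9 fibroblast markers summed to 772 and 512 in the controls and 686 and 408 in the cKO biopsies, with 5 lower in both litters and 3 higher. The sums of 6 tested of 8 mast cell markers were 15.1 and 9.7 in the controls and 20.4 and 11.7 in the cKO biopsies, with 5 higher in both litters. In each of the 3 lists litter 2 was below litter 1 in both genotypes, as it was for Cd34. This step was not particular to them. Sebaceous gland markers summed to 56.2 and 47.4 in the controls and 50.3 and 41.0 in the cKO biopsies. Schwann cell, fat cell and macrophage sums, among others, stepped the same way. Those of inner root sheath, proliferation and melanocyte markers were higher in litter 2 in both genotypes. The part of endothelial cells, fibroblasts and mast cells in the Cd34 values was not tested.

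Plet1, a membrane protein of the isthmus and of early placenta, was the member that stood highest over its controls. Its probes are shown by their first 30 bases because they lie in different places of the gene on chromosome 9 and differed in size of change.
Plet1 probe 1 (chr9:50307294-50307353): gaagtgcaacgacagcagtgtctactataa
Plet1 probe 2 (chr9:50313107-50313166): ctactagcagatttccactgtgcccagacc
The second, brighter probe read 4.20 and 4.28 in the controls (mean 4.24 ± 0.056, SD, n = 2) and 4.64 and 4.48 in the cKO biopsies (4.56 ± 0.11, SD, n = 2). Both cKO values were above both controls, by 0.44 in litter 1 and by 0.20 in litter 2. The difference was 0.32 ± 0.10 (95% interval 0.044 to 0.59), with an adjusted p of 0.263 in limma and 0.192 with litter as a block. The first probe read 0.26 and 0.45 against 0.52 and 0.41, so its groups overlapped and the litters went opposite ways (0.27 and -0.036). Its difference was 0.12 ± 0.11, and with a normexp background correction that of the brighter probe was 0.093.

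Keratinocyte and follicle markers gave the frame for these values. The median difference was 0.16 over the 8 basal keratinocyte markers, 7 of them higher in both litters, and 0.24 over the 7 suprabasal ones, 5 of them higher in both. Over 6 hair shaft markers tested of 9 the median was -0.15, and over 6 inner root sheath markers tested of 8 it was -0.18. The summed basal markers were 518 to 523 in the controls and 558 to 579 in the cKO biopsies, and the summed inner root sheath markers 2288 to 2387 and 2016 to 2088. Sox9 is also made by cartilage, and 2 of 4 cartilage markers were tested (Col9a1 and Matn1 were not above background). Their summed levels were 16.3 and 9.54 in the controls and 13.5 and 8.16 in the cKO biopsies, lower in cKO skin within each litter. Of the 2 markers, 1 was lower in both litters, and in the other the litters went opposite ways. The sums fell from litter 1 to litter 2 in both genotypes, while the brightest Sox9 probe rose. No keratinocyte, follicle or cartilage marker passed in limma. The part of these cell types in the values of the 9 genes was not tested.

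The step between litters was larger than that between genotypes in 4 of the 9 genes. In Cd34, Lgr6, Lhx2 and Nfatc1 both genotypes differed between litters in the same direction, and by more than cKO differed from control. Over all genes the deviations from the group means correlated between the genotypes at 0.35 within a litter. Taking litter as a block lowered the adjusted p of Sox9, Plet1, Cd34 and Lgr6 as given above, and over the 9 genes it ran from 0.142 to 0.985. None of the 9 passed in limma with the block, with which 0 genes of the array passed and 3706 had an unadjusted p under 0.05.

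**Figure D4:**
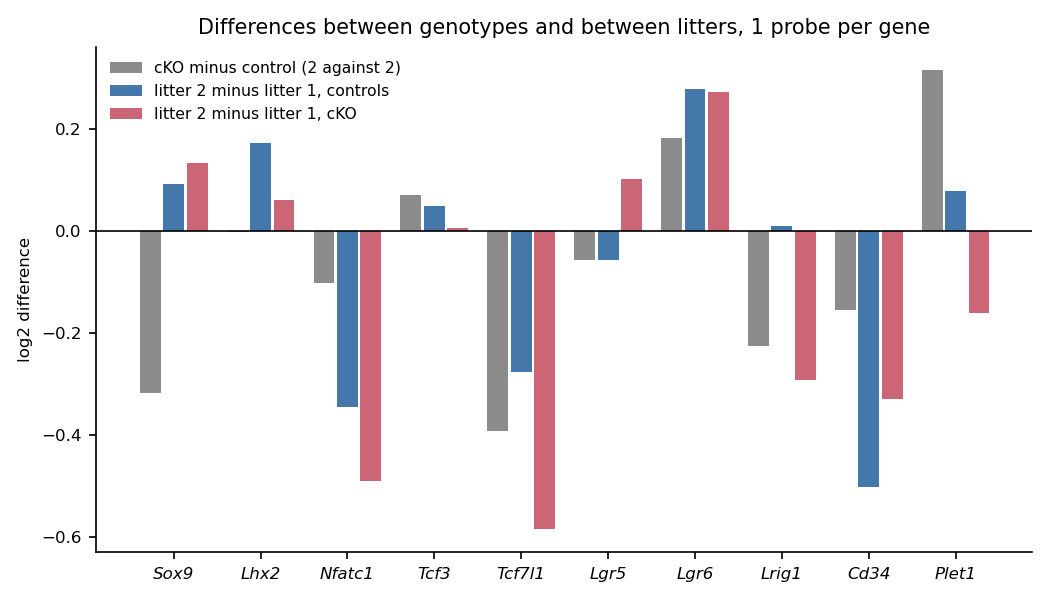
Bars of log2 differences for the 9 genes and for Tcf7l1 (not a member), at the probe that stands for each gene. Grey bars are cKO minus control. Blue bars are litter 2 minus litter 1 in the controls, and red bars the same in the cKO biopsies. For Cd34, Lgr6, Lhx2 and Nfatc1 the blue and red bars lie on the same side of 0 and are longer than the grey bar.

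Other genes of the same niches were set beside the 9. These lists and the members were chosen with results of these data known, so their counts are a description. Of 28 other bulge and follicle stem cell genes 26 were tested, and 0 passed in limma, with 8 at an unadjusted p under 0.05. Of all genes tested 16.1% were under that level, the background for this count and for those of the lists that follow. The cKO biopsy was higher in both litters for 14 and lower for 11, and the median difference was 0.14. The 11 include the dim Angptl7, whose only probe was not well above background on every array. Angptl7 read -3.49 and -3.40 in the controls and -3.61 and -4.47 in the cKO biopsies. Its place in this count and in the median is therefore no evidence of a change. Krt19, a keratin of bulge cells, had the smallest p. It read -1.33 and -1.34 in the controls and -1.99 and -2.03 in the cKO biopsies, a difference of -0.67 ± 0.082 with nearly the same step in both litters (adjusted p 0.0778 in limma). Ccn2, the matricellular protein also called Ctgf, read 3.60 and 3.67 against 4.25 and 4.33, a difference of 0.65 ± 0.090 (adjusted p 0.0925 in limma). Sfrp1, a secreted Wnt inhibitor of the bulge named here after its values were seen, read 0.46 and 0.52 in the controls and 3.53 and 1.01 in the cKO biopsies. Its difference of 1.78 ± 0.86 rested on the litter 1 cKO biopsy and had an adjusted p of 0.408. Krt15, the keratin most used to mark the bulge, differed by -0.075 ± 0.12, likewise named after its values were seen.

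The isthmus and the upper follicle, where Lrig1, Plet1 and Lgr6 lie, were covered by 10 further genes. In 6 of them the cKO biopsy was higher in both litters and in 2 lower, with a median of 0.14, and 0 passed in limma, with 2 at an unadjusted p under 0.05. Klk6, a serine protease, read 1.48 and 1.87 in the controls and 3.77 and 2.97 in the cKO biopsies, a difference of 1.69 ± 0.31 (adjusted p 0.135). Gata6, a transcription factor of the sebaceous duct and junctional zone, read -0.036 and -0.17 against -0.55 and -1.28, a difference of -0.81 ± 0.26 (adjusted p 0.270). With an array left out that of Gata6 ran from -1.18 to -0.45.

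The ligands and partners of Lgr5 and Lgr6 formed a list of their own, in which no gene passed. R-spondins bind LGR receptors and keep the ligases ZNRF3 and RNF43 from removing Wnt receptors. Of 9 listed genes 8 were tested, since Rspo3 was not above background, and 7 were higher in both litters and 1 lower (background 40.4% and 32.1%). The 7 include the dim Rspo4, which met the filter through the cKO biopsies alone. Rspo4 read -5.00 and -4.03 in the controls and -4.33 and -3.91 in the cKO biopsies, so its place in this count and in the list's median is no evidence of a change. The median difference was 0.30, at 0.40 in litter 1 and 0.12 in litter 2. In limma 0 passed, with 4 at an unadjusted p under 0.05. Rspo2 read -3.59 and -3.51 in the controls and -2.91 and -2.49 in the cKO biopsies, a difference of 0.85 ± 0.17 (adjusted p 0.147). Lgr4, the broadly expressed paralog of Lgr5 and Lgr6, read 0.91 and 0.97 against 1.36 and 1.14, a difference of 0.31 ± 0.11 (adjusted p 0.306), and 0.20 to 0.42 with an array left out. The exception was the Wnt co-receptor Lrp6, at -1.91 and -1.88 against -2.12 and -2.22, a difference of -0.28 ± 0.089.

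Among 17 TCF/LEF factors, co-repressors and Wnt targets, 8 were higher in both litters and 3 lower, the median was 0.056, and 0 passed in limma, with 1 at an unadjusted p under 0.05. Lef1, the activating factor of the hair matrix and germ, read 1.34 and 1.58 in the controls and 1.87 and 1.97 in the cKO biopsies, a difference of 0.46 ± 0.12 (adjusted p 0.206). Tcf7l1 lay on the other side, as given above. Tcf7l2, which acts with Tcf7l1 in skin, read 0.74 and 0.70 against 0.95 and 0.91, a difference of 0.21 ± 0.084 (adjusted p 0.342). Tcf7 differed by -0.040 ± 0.10.

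The partners and inhibitors of Tcf3 were 2 further E proteins and 4 ID proteins, which bind E proteins and keep them off DNA. In 4 of the 6 the cKO biopsy was lower in both litters, in 1 higher, and the median was -0.13. Id3 read 3.30 and 3.30 in the controls and 2.95 and 3.04 in the cKO biopsies, a difference of -0.31 ± 0.086 (adjusted p 0.227). Id1 read 3.28 and 3.39 against 2.91 and 3.05, a difference of -0.35 ± 0.10 (adjusted p 0.234). Id2, named after its values were seen, went the other way, at 2.46 and 2.30 against 2.80 and 2.67, a difference of 0.36 ± 0.11 (adjusted p 0.240). Tcf4 and Tcf12 differed by -0.047 ± 0.14 and -0.074 ± 0.11. None passed in limma, and 3 had an unadjusted p under 0.05 (Id1, Id2 and Id3).

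For Nfatc1, 13 other NFAT factors, calcineurin subunits and regulators were tested. In 6 the cKO biopsy was higher in both litters and in 4 lower, with a median of 0.014, and 0 passed in limma, with 3 at an unadjusted p under 0.05. Nfatc2 was dim, at -2.88 and -3.35 in the controls and -4.06 and -4.16 in the cKO biopsies, a difference of -0.99 ± 0.18 (adjusted p 0.132). It was well above background on both control arrays but on only 1 of the 2 cKO arrays, so it met the filter through the controls. Nfatc2 is abundant in T cells, and the 5 T cell markers tested of 6 had a median of -0.58, with 4 lower in both litters, and summed levels of 0.866 to 0.874 in the controls and 0.576 to 0.689 in the cKO biopsies. The part of T cells in this value was not tested. Ppp3cc, a catalytic subunit of calcineurin, read -0.028 and 0.051 against -0.51 and -0.42, a difference of -0.48 ± 0.091 (adjusted p 0.139). Nfatc3 differed by -0.12 ± 0.15 and Nfatc4 by 0.11 ± 0.12.

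For Lrig1, the list held its paralogs, the ERBB receptors and inhibitors of these receptors, with 7 of 9 tested. In 3 the cKO biopsy was higher in both litters and in 1 lower, with a median of 0.084, and 0 passed in limma, with 0 at an unadjusted p under 0.05. Lrig3 read 3.29 and 3.25 in the controls and 3.54 and 3.46 in the cKO biopsies, a difference of 0.23 ± 0.086 (adjusted p 0.314), opposite in sign to Lrig1. Lrig2 differed by 0.067 ± 0.088. Errfi1, a cytoplasmic inhibitor of the EGF receptor that the receptor induces, read 3.59 and 3.58 against 3.49 and 3.29, a difference of -0.19 ± 0.11 (adjusted p 0.459), and -0.29 to -0.092 with an array left out.

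Of 22 SOX and LIM homeobox relatives of Sox9 and Lhx2, 15 were tested. In 7 the cKO biopsy was higher in both litters and in 4 lower, with a median of 0.050. A single gene passed, Isl2, a LIM homeobox factor known from motor neurons. It read -4.21 and -4.13 in the controls, where it was dim, and -7.01 and -6.67 in the cKO biopsies, where neither array had it well above background. It met the filter on dim probes through the controls alone, and its adjusted p of 0.0244 in limma sets them against background-level values. The size of the difference is therefore not known. Set against the lowest signal well above background on each cKO array, the Isl2 controls stood 1.42-fold higher. This is not a firm bound, since a probe can miss the scanner's flag at a higher signal, as Nfatc2 did on the second cKO array. The call was lost with litter as a block (adjusted p 0.0567), with no filter on dim probes (0.104), without the first control (0.103) and without the second control (0.0899), and the sign turned with normexp. Under a filter for signal above background on all arrays it was not tested.

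**Figure D5:**
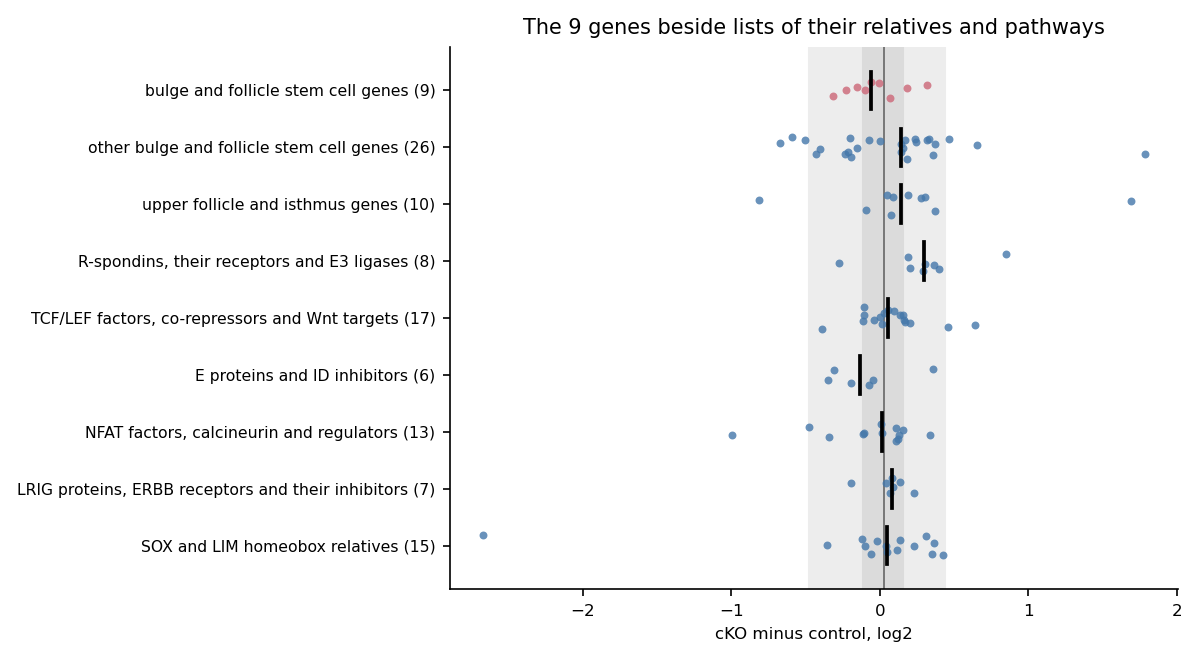
Differences between cKO and control biopsies (log2, horizontal axis) for the genes of the 8 lists set beside the 9 genes, 1 point per gene tested, below the 9 genes themselves in red, with black bars for the median of each list and grey bands for the percentiles of all genes tested. The R-spondin list has its median at 0.30 and the list of E and ID proteins at -0.13.

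With a normexp background correction the median of the other bulge genes turned to -0.040, that of the TCF/LEF list to -0.058, that of the NFAT list to -0.085 and that of the LRIG and ERBB list to -0.15. That of the upper follicle list fell to 0.00096 and that of the R-spondin list to 0.22. The NFAT median also turned, to -0.0026, with quantile normalization. In the normexp setting the E and ID protein list stood at -0.35, the SOX and LIM list at 0.51, and the 9 genes themselves at -0.15. The SOX and LIM median in that setting was the value of Isl2 itself, which was well above background on neither cKO array. Several single differences grew there, to -0.51 for Sox9, -0.49 for Lrig1, -0.44 for Cd34 and 0.78 for the dim Lgr6, while Nfatc1 (0.34) and Tcf3 (-0.15) changed sign. No gene of the array passed in limma in that setting, with 424 at an unadjusted p under 0.05.

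The genes whose pattern over the 4 arrays lay closest to each member were sought among the 216 genes of these lists and the marker lists. The measure was the root mean square difference between values centred on their own mean, over 4 arrays, so the order is a description. Closest to Sox9 were Id1 at 0.018 and Id3 at 0.036. Closest to Cd34 were the endothelial tight junction gene Cldn5 at 0.035 and Tle1 at 0.055. Cldn5 read 1.79 and 1.36 in the controls and 1.63 and 1.23 in the cKO biopsies, with litter 2 below litter 1 as for Cd34. Plet1 lay closest to the basal keratinocyte gene Dst and to Lgr4, both at 0.023. Lrig1 lay closest to Runx1 at 0.026 and Errfi1 at 0.038. For Lgr5 the nearest genes were Sox18 at 0.011 and Sox11 at 0.025, and for Lgr6 they were Sp5 at 0.032 and Cabin1 at 0.049. Lhx2 had Dsg1a at 0.016 and Krt71 at 0.036, Nfatc1 had Lhx1 at 0.030 and Dcn at 0.034, and Tcf3 had Mlana at 0.022 and Dsc1 at 0.024.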

How the data were processed

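RNA of 4 back skin biopsies (2 control, 2 cKO) was labelled with Cy3 and hybridised to 1-colour Agilent whole mouse genome arrays, per the labels' protocols. Per the file headers all 4 lay on 1 slide with 1 scan, so neither could be tested as a batch. The submitters' processing notes name Feature Extraction 10.5 and the file headers 10.7.3.1. The deposited scanner files hold intensity values, of which the authors' background-subtracted processed signal was used. The authors' deposited series table holds log2 values. These matched the scaled processed signal after each probe was centred on its median (correlation at least 0.99999, column medians -0.076, 0.056, -0.061 and 0.081), and the table served as an alternative.

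Control spots and spots flagged as outliers (51 to 66 per array) were left out, spots of a probe averaged, and the array's 75th percentile subtracted on the log2 scale. Probes were kept where both biopsies of either genotype exceeded background clearly by the scanner's flag, 22188 of 41174. The brightest probe stood for a gene. Accessions named 26690 probes through RefSeq genes of GRCm38.p6, current symbols 5189 and synonyms 952, and 8343 kept the name in the files. Coordinates and probe sequences are the files' own, in mm9, with no exon annotation used here. The two-sided test was that of limma 3.58.1 (R 4.3.3; lmFit, then eBayes) with genotype alone in the model. Benjamini-Hochberg adjustment ran over 15550 genes or, for probes, 22188, with a threshold of 0.05. The fit was tested on simulated data. Per the labels the replicate number is the litter, so same-numbered animals are matched littermates, and their deviations correlated at 0.35 (Spearman 0.43) over genes. As no model is stated, litter as a block was an alternative. Other alternatives were normexp with an offset of 50, median and quantile scaling, other filters, the mean over probes and leaving out each array.

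The members and lists were chosen with earlier results of these data known. Named genes were the 9 members, Adam17, the members' paralogs and, of each list, those past the threshold or otherwise the 2 with the smallest p. Marker lists are described where their cells are known to make a member. Other marker lists were sebaceous gland (median -0.35 over 6 genes), companion layer (0.29 over 2), proliferation (0.078 over 8) and lymphatic endothelium (-0.26 over 4). The 2 companion layer markers went opposite ways, at -0.21 and 0.80. Their summed levels were 309 and 322 in the controls and 271 and 306 in the cKO biopsies. Further lists were dermal papilla (0.033 over 4), fat (0.55 over 7), muscle (0.42 over 8) and melanocyte (0.33 over 5). The last were Schwann cell (-0.13 over 6) and macrophage (0.22 over 6), and no B cell marker was bright enough to test.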

Additional observations from a re-analysis of the deposited data

How the results depend on the processing

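None of the 9 genes passed under any alternative run, and 67 of the 76 alternative values that differed from the main one kept its sign. The sign turned for Nfatc1 (0.34) and Tcf3 (-0.15) with normexp, and for Lhx2 (0.0052) with median scaling. It also turned with an array left out, with ranges of -0.41 to 0.096 for Cd34, -0.35 to 0.14 for Nfatc1 and -0.089 to 0.084 for Lhx2. Leaving out an array unbalances the litters, so every such value takes in the step between litters. Within litters Cd34 (-0.24 and -0.068) and Nfatc1 (-0.028 and -0.17) were lower in cKO skin both times. Lgr5 ran from -0.11 to -0.0061 without a turn. The Isl2 difference turned to 0.51 with normexp, under which 0 genes of the lists passed in place of 1. Of all 15550 genes 0.341% passed. None (0) did with litter as a replicate block (3706 at an unadjusted p under 0.05), with normexp (424) or, over 28023 genes, with no filter on dim probes (2079). With median scaling 0.688% passed, with quantile normalization 0.514%, and of 14963 genes well above background on all arrays 0.187%. With an array left out the share ran from 0 to 0.244%, at 0 without the first control and 0 without the second. The block changed the call of no member and of Isl2 among the lists. With 2 animals a group the median standard error over all genes was 0.11. The cause of these shifts was not tested.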
